A study of Mus musculus with 6 samples.

Results

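Zinc, iron and copper enter cells through dedicated transporters, are bound by storage and carrier proteins and leave through exporters, and the genes of this machinery were followed here across 6 arrays of mouse embryonic stem cells. The members were chosen by name: every gene whose symbol begins with Slc39a (zinc importers of the ZIP family) or Slc30a (zinc transporters of the ZnT family), the metallothionein genes Mt1 and Mt2 with their regulator Mtf1, and a fixed set of iron and copper genes. Of 18193 genes with a probe set of 1 symbol, 41 were members, and 36 of those were among the 12741 genes with enough signal to be tested. A further gene of the set, Ftl1, had no probe set annotated to it alone and was not used here. The probe set brightest on average across the 6 arrays stood for each gene. That average is the only measured value the choice of probe set used. The set itself was proposed with the rise of Slc39a8 in this comparison already known, so that gene's values are a description. Other earlier results of these data were also known when members and lists were chosen. The adjusted p-values of the other genes do not allow for that. No statement below rests on how many members changed.

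Both groups were R1 cells, a mouse embryonic stem cell line, infected with a lentivirus and sorted for GFP. The 3 control arrays came from cells expressing an shRNA (a short hairpin RNA that triggers degradation of its target) against luciferase, and the 3 others from cells expressing shRNA1 against KIAA1718, the histone demethylase encoded by Kdm7a. Whether the replicates were separate infections or cultures is not stated in the labels; a p-value here reflects the scatter among these 6 samples, possibly a technical one. Each group carried 1 hairpin sequence, so effects of the hairpin on other transcripts and an effect of its target cannot be told apart. In bulk RNA, a change in the share of cells that express a gene and a change per cell cannot be told apart either.

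The targeted gene gave no check of the labels. The brightest Kdm7a probe set had deposited signals of 33.3, 31.2 and 44.9 on the control arrays and 40.9, 23.8 and 34.9 on the KIAA1718 arrays. Its log2 difference was -0.20 (limma adjusted p = 0.533). The other tested Kdm7a probe sets differed by -0.16 and -0.22 (limma adjusted p = 0.584 and 0.461). All thus lay below 0 and none passed, and only the last did not overlap between groups once normalized. Median signals ran from 9.58 to 13.3 between arrays, and normalized log2 values correlated at 0.983 to 0.988 within groups and 0.976 to 0.985 between them. All 10 embryonic stem cell markers were tested. At a limma adjusted p under 0.05, 3 of them, Fgf4, Esrrb and Utf1, were lower on the KIAA1718 arrays and none was higher. The summed normalized signal of the 10 was 12920 to 13286 in controls and 11409 to 11906 on the KIAA1718 arrays. The sum of 11 fibroblast markers was 4576 to 7337 in controls and 4401 to 5559 on the KIAA1718 arrays. Vim and Acta2, the brightest of the 11, weigh most in it. Only Pdgfra passed, as lower, but all 11 log2 differences were below 0, from -0.15 for Vim to -1.53 for Col1a1. Col1a1 had mean signals of 343 in controls and 116 on the KIAA1718 arrays (limma adjusted p = 0.0711). The sum of 9 primitive endoderm markers was 1020 to 1309 and 902 to 964. Of 8 tested, 3 passed as lower, and all 8 differences were below 0. Pdgfra is in both lists. Of 6 erythroid markers on the array, the haemoglobin genes Hba-a1 and Hbb-y, Alas2 and Slc4a1 were too dim to be tested, and Klf1 and Epor did not pass the threshold. Of 6 trophectoderm markers, 5 were tested. All 5 lay above 0, from 0.01 for Hand1 to 0.31 for Cdx2, and none passed. Of 6 macrophage markers, 4 were tested, from -0.29 for Csf1r to 0.01 for Adgre1, and none passed. The part of these marker shifts in the results below was not tested.

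Cells sense zinc through the transcription factor encoded by Mtf1, which binds metal response elements in DNA and switches on the metallothioneins, small cysteine-rich proteins that hold zinc and copper, and the zinc exporter gene Slc30a1. Iron is sensed by the iron regulatory proteins encoded by Aco1 and Ireb2, which bind the messenger RNAs of ferritin, the transferrin receptor and ferroportin when iron is scarce. Copper enters through the transporter encoded by Slc31a1 and is passed on by chaperones.

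The upstream sequences of 3 textbook targets of Mtf1 are shown because their genes appear on opposite sides of the comparison below. They are the 250 bases before the annotated start in RefSeq's mouse annotation (GRCm38.p6), printed 5′ to 3′ on the gene's strand, with matches to the core of the metal response element in capitals. The search was for TGCACNC and TGCGCNC on both strands.
Mt1, chr8:94178839-94179088, plus strand: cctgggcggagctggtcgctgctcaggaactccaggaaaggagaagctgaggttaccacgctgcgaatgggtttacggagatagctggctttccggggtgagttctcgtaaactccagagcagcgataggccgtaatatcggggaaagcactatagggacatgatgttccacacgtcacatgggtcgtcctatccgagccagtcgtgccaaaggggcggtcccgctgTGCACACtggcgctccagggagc
Mt2, chr8:94172368-94172617, plus strand: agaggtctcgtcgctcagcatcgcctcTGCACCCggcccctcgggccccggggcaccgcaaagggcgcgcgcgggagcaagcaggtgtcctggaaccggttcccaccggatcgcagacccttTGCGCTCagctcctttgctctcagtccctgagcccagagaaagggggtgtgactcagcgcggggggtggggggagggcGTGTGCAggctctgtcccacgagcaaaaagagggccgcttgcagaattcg
Slc30a1, chr1:191906531-191906780, plus strand: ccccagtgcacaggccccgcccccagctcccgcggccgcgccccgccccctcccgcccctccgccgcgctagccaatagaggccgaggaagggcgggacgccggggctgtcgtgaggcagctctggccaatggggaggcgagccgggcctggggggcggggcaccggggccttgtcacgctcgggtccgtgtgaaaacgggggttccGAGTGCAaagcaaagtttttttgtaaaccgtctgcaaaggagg

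The Mt1 window held 1 match, the Mt2 window 3 and the Slc30a1 window 1, and none of these matches overlapped another. Just after its annotated start, at chr8:94179091-94179120, Mt1 held a pair of further matches within 30 bases: TGCACTCcgcccgaaaagTGCGCTCggctc. In the 50 bases after their starts Mt2 and Slc30a1 each held 1 further match, which brought the counts over the whole 300 bases to 3 for Mt1, 4 for Mt2 and 2 for Slc30a1. At least 1 match was present in 21.4% of all 32851 upstream windows in the table and 3 or more in 1.26%. Of the 41 members, 34 had an entry, with 44 windows between them, and 17 of these windows, from 16 genes, held a match. A match is a string of letters, not a measured binding site. Whether a match lies before or after a start holds for the annotation only. The counts depend on the annotated starts, which were not checked against where transcription begins in these or other cells. They are therefore no comparison of the promoters of these genes.

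Differences below are KIAA1718 shRNA1 minus luciferase shRNA in log2(normalized signal + 16), given with the standard error of the fit, and signals are the deposited intensities. A gene was called when its limma p-value, adjusted over 27023 probe sets, was under 0.05. The added 16 shrinks the differences, most of all those of dim genes. Of the 36 tested members, 4 were called higher (Slc39a8, Slc40a1, Aco1 and Mt2) and 3 lower (Slc30a1, Ccs and Fth1), and 29 did not pass, of which Mt1, Atp7a and Slc30a9 had an unadjusted p under 0.05. That is 19.4% of the tested members, with Slc39a8, known beforehand, among them, beside 4.87% of all tested genes, 2.68% higher and 2.19% lower. Normalized signals of the groups did not overlap for 12 of the 36, or 33.3%, beside 27.9% of all tested genes. The median difference was 0.06 for the members and 0.00114 for all tested genes, and the median size regardless of sign was 0.17 and 0.15. With unscaled values, under which the median of all genes was 0.11, 5 members were called higher (Mt1 added) and none lower by limma (2 lower at an unadjusted p under 0.05), and Slc30a1, Ccs and Fth1 kept their sign. The calls depended on single arrays. Without control replicate 3 the only member called was Slc39a8, and without KIAA1718 replicate 3 the members called were Slc39a8 and Aco1. Over 15 alternatives the call was lost in 3 for Slc40a1 and Aco1 each and in 4 for Slc30a1. The count of called members was 4 without control replicate 1, 6 without control replicate 2, 6 without KIAA1718 replicate 1 and 5 without KIAA1718 replicate 2. Pairing the arrays by replicate number, as a block in the fit, called 8 members (the 7 and Mt1), beside 7.85% of all genes. Over all genes, 620 were called, 161 without control replicate 3 and 203 without KIAA1718 replicate 3.

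**Figure D1:**
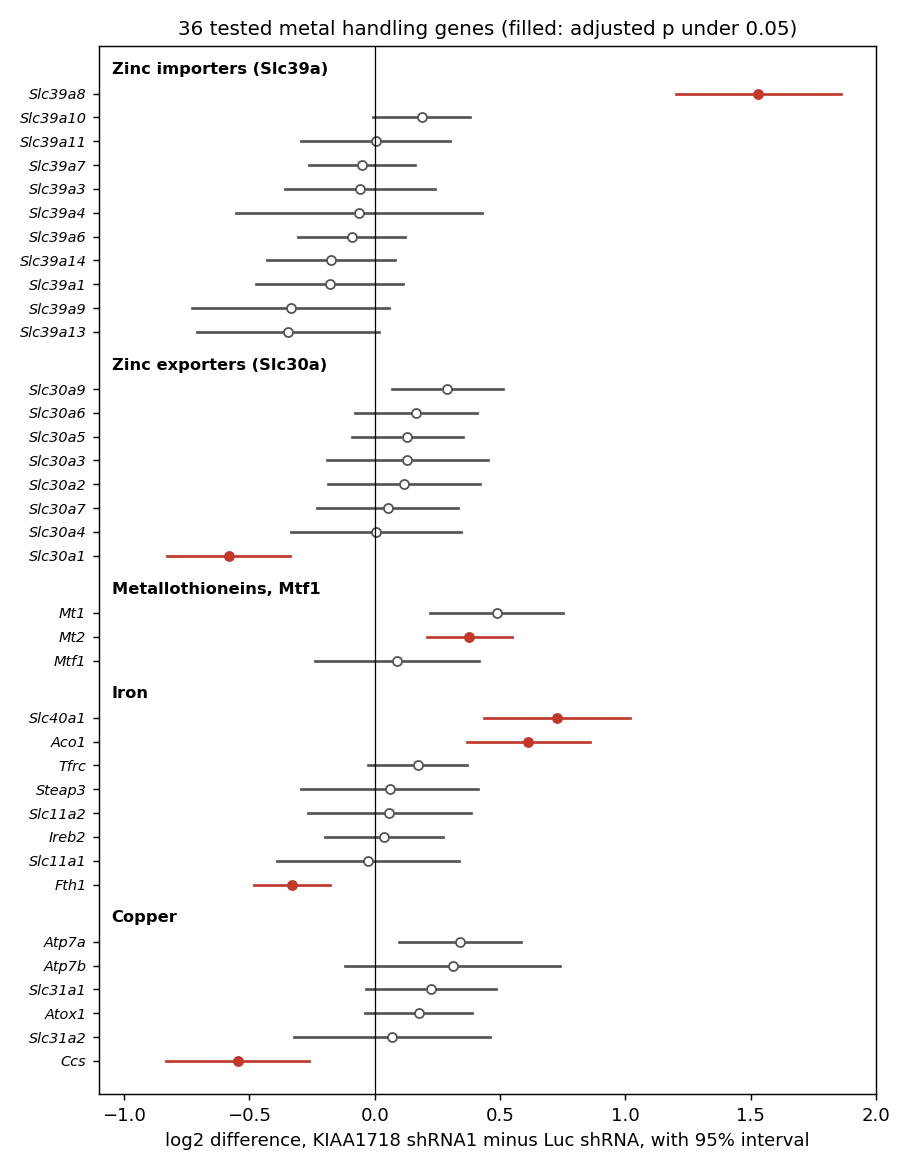
Log2 difference between KIAA1718 shRNA1 and luciferase shRNA arrays (x axis; points are fitted differences and lines 95% intervals, 3 arrays a group) for the 36 tested members, arranged by metal and role. The 7 filled points passed an adjusted p of 0.05, with Slc39a8 at 1.53 farthest from 0 and Slc30a1 at -0.58 the lowest.

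Among the zinc importers, Slc39a8 was the 1 called gene. The ZIP8 protein it encodes carries zinc, manganese and iron across the plasma membrane. Signals were 39.8, 26.4 and 29.6 on the control arrays and 131, 121 and 146 on the KIAA1718 arrays. Every KIAA1718 array was above every control array, and the difference was 1.53 ± 0.15 (95% interval 1.20 to 1.86). A second, dimmer probe set, at 7.73, 5.52 and 14.7 in controls and 30.01, 23.0 and 37.9 on the KIAA1718 arrays, differed by 0.81 ± 0.15. Leaving out any 1 array gave 1.40 to 1.69 for the brightest probe set.

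Slc39a14, which encodes ZIP14, the closest relative of ZIP8, had 203, 183 and 215 in controls and 196, 169 and 226 on the KIAA1718 arrays. The groups overlapped, and the difference of -0.17 had a 95% interval of -0.43 to 0.08 (limma adjusted p = 0.470). Its further tested probe sets gave -0.15 and -0.11. The other 9 tested importers ran from -0.35 to 0.19 and none passed. Above 0 were Slc39a10 at 0.19 and Slc39a11 at 0.00429. Below 0 were Slc39a7, an importer of the endoplasmic reticulum and Golgi, at -0.05, Slc39a3 at -0.06, Slc39a4, the intestinal zinc importer, at -0.06, Slc39a6 at -0.09, Slc39a1 at -0.18, Slc39a9 at -0.34 and Slc39a13 at -0.35. Slc39a4, Slc39a9 and Slc39a13 varied widely between replicates, with control SDs of 23.9, 21.2 and 12.1 on means of 61.6, 53.1 and 41.0. The median over the 11 tested importers was -0.06; with arrays scaled to 1 median Slc39a11 lay below 0, and with unscaled values Slc39a3, Slc39a4, Slc39a6 and Slc39a7 lay above it.

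The zinc exporter side held 1 called gene, and it was lower. Slc30a1 encodes ZnT1, the zinc exporter of the plasma membrane. Control arrays read 187, 201 and 226 and KIAA1718 arrays 143.5, 134 and 159. The groups did not overlap, and Slc30a1 fell by 0.58 ± 0.11 on the log2 scale (limma adjusted p = 0.0172). Its other probe set, with means of 81.0 and 58.4, differed by -0.49 (limma adjusted p = 0.0790; fitted with the replicate block, adjusted p = 0.0402). Of the other 7 tested members of the family all were above 0 (Slc30a4 below it, at -0.0330, with arrays scaled to 1 median) and none passed: Slc30a9 at 0.29, Slc30a6 at 0.16, Slc30a5 and Slc30a3 at 0.13, Slc30a2 at 0.12, Slc30a7 at 0.05 and Slc30a4 at 0.00506. Slc30a5, Slc30a6 and Slc30a7 encode transporters that load zinc into the secretory pathway. Slc30a9 was the 1 gene of these 7 whose groups did not overlap in normalized signal (in deposited signal Slc30a2 did not overlap either), with deposited values of 193, 189 and 228 in controls and 279.7, 269 and 291 on the KIAA1718 arrays (limma adjusted p = 0.148).

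Both metallothionein genes, which lie side by side on chromosome 8, were brighter on the KIAA1718 arrays. Mt2 read 954, 1041 and 1175 in controls and 1343.5, 1534 and 1566 on the KIAA1718 arrays. Mt2 rose by 0.38 ± 0.08 (limma adjusted p = 0.0239), and its groups did not overlap. It did not pass in 7 of 15 alternatives, which include arrays scaled to 1 median, at 0.29 (limma adjusted p = 0.159), and a fit with no intensity trend (adjusted p = 0.116). Mt1 read 313, 401 and 417 in controls and 557, 640.5 and 565 on the KIAA1718 arrays. These groups did not overlap either, but the difference of 0.49 ± 0.12 missed the threshold (limma adjusted p = 0.0513; fitted with the replicate block, adjusted p = 0.0151). The Mt1 probe set carries the suffix of sets whose probes can match more than 1 transcript. Mtf1, the regulator, had 39.6, 37.1 and 32.4 in controls and 41.6, 39.4 and 51.5 on the KIAA1718 arrays, groups that overlapped once normalized. Its difference was 0.09 (95% interval -0.24 to 0.42), and its further tested probe sets gave -0.15 and 0.16. Of the 3 genes whose upstream sequences are printed above, the metallothioneins were thus higher, Mt1 short of the threshold, and Slc30a1 lower.

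**Figure D2:**
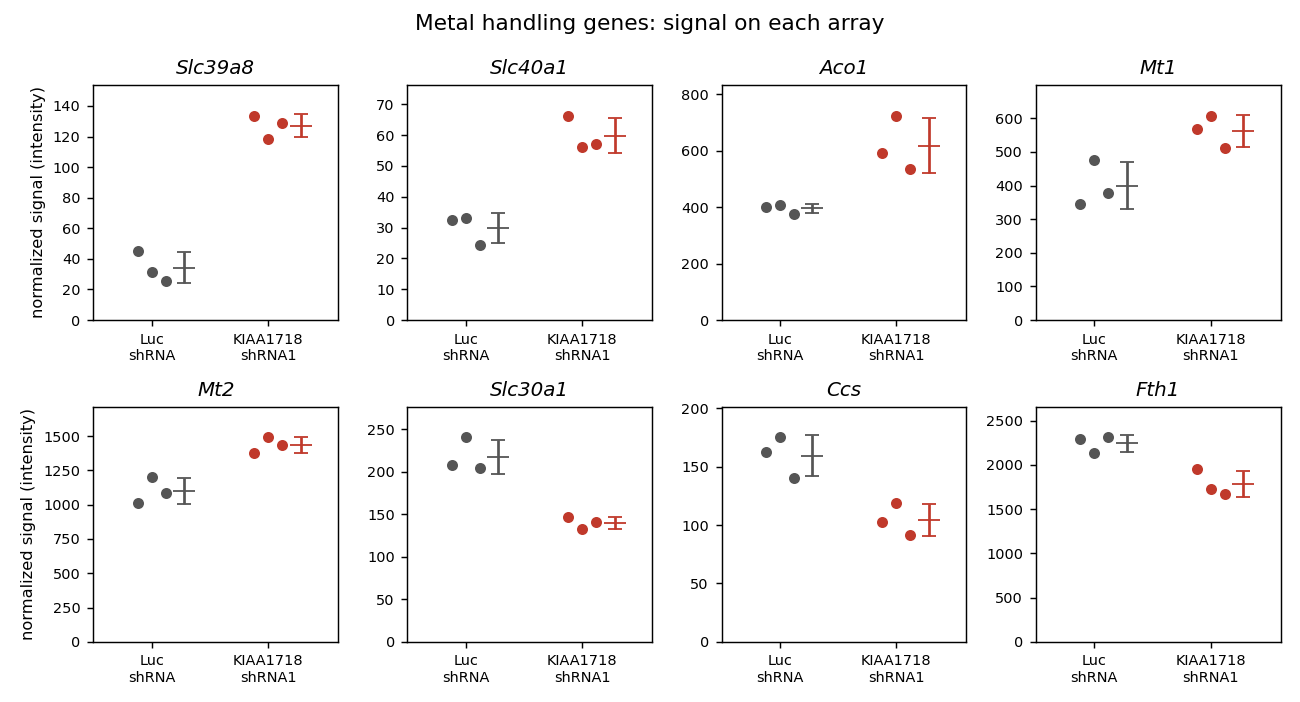
Normalized signal (y axis, linear intensity from 0) of 8 members on each of 3 luciferase shRNA and 3 KIAA1718 shRNA1 arrays; points are arrays and bars beside them the mean ± SD. In each panel the groups do not overlap; Slc30a1, Ccs and Fth1 are lower and the other 5 higher on the KIAA1718 arrays.

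In the iron set, the exporter and a sensor were higher and a ferritin subunit lower. Slc40a1 encodes ferroportin, the cellular iron exporter. Control arrays gave 27.8, 27.9 and 27.9 and KIAA1718 arrays 64.3, 56.9 and 65.6, with no overlap. Slc40a1 rose by 0.73 ± 0.13 (limma adjusted p = 0.0139), and its second probe set, with 16.3, 11.9 and 17.2 in controls and 34.7, 34.3 and 29.9 on the KIAA1718 arrays, rose by 0.56 ± 0.14 (limma adjusted p = 0.0474). Aco1 encodes cytosolic aconitase, which acts as iron regulatory protein 1 when it lacks its iron-sulphur cluster. Its signals were 367, 345 and 416 in controls and 581, 766 and 592 on the KIAA1718 arrays. The groups did not overlap, and Aco1 rose by 0.61 ± 0.11 (limma adjusted p = 0.0136). This probe set's suffix also marks probes that may match other transcripts. A dimmer Aco1 probe set differed by 0.29 (limma adjusted p = 0.206), and averaging all of the gene's probe sets gave 0.32 and no call. Ireb2, which encodes iron regulatory protein 2, had 255, 241 and 364 in controls and 306, 291 and 369.9 on the KIAA1718 arrays. Its groups overlapped, with a difference of 0.04 (95% interval -0.20 to 0.27).

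Fth1 encodes the heavy subunit of ferritin, the iron store of the cell. Deposited signals were 2159.5, 1874.5 and 2470.4 in controls and 1935, 1753 and 1821 on the KIAA1718 arrays, and these overlapped. After normalization they were 2289, 2135 and 2309.8 against 1949, 1730.1 and 1675, with no overlap. Fth1 fell by 0.33 ± 0.07 on the log2 scale (limma adjusted p = 0.0266), a call lost in 8 of 15 alternatives, among them unscaled values, where the difference was -0.23 and the median of all genes 0.11, and arrays scaled to 1 median, where it was -0.42 (limma adjusted p = 0.0680). The second Fth1 probe set differed by -0.23 (limma adjusted p = 0.0986).

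On the uptake side of iron, none of Tfrc, Slc11a2, Steap3 and Slc11a1 passed. Slc39a8, whose protein also carries iron, and Trf, a gene beyond the members, were called higher and are given in their own paragraphs. Tfrc encodes the transferrin receptor, whose messenger RNA the iron regulatory proteins stabilise. Signals were 825, 639 and 867 in controls and 902, 869 and 1062 on the KIAA1718 arrays, which overlapped once normalized. The difference was 0.17 (95% interval -0.03 to 0.37, limma adjusted p = 0.342). Its further tested probe sets gave 0.33 and 0.41, with control replicate 2 low on both, at 101 and 27.5 against 240.3 or more and 68.7 or more on the other 2 control arrays. The same array was low on the 3 Tfrc probe sets that the manufacturer placed on the array as controls: the one at the 3' end read 156, 75.4 and 164 in controls and 167, 151 and 193 on the KIAA1718 arrays. Slc11a2, which encodes the iron importer DMT1, had 44.4, 35.6 and 65.5 in controls and 62.7, 44.1 and 59.0 on the KIAA1718 arrays. These overlapped, with a difference of 0.06 (95% interval -0.27 to 0.38). The further tested Slc11a2 probe sets gave -0.09, 0.32 and 0.02. The dim set at 0.32 did not overlap between groups but did not pass (limma adjusted p = 0.244). The endosomal ferrireductase gene Steap3 differed by 0.06 and Slc11a1, the metal transporter of phagocytes, by -0.03, both from mean signals under 20 (8.13 and 15.99 in controls).

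Copper genes were led by a decrease in a chaperone. Ccs encodes the protein that delivers copper to superoxide dismutase 1. It read 145, 146 and 158 in controls and 99.9, 121 and 103 on the KIAA1718 arrays. The groups did not overlap, and Ccs fell by 0.55 ± 0.13 on the log2 scale (limma adjusted p = 0.0423). Ccs has 1 probe set, and its call was lost in 8 of 15 alternatives. Atp7a, which encodes the copper-exporting ATPase of most tissues, had 86.3, 87.6 and 111 in controls and 133, 124 and 152 on the KIAA1718 arrays. No overlap was seen, but the difference of 0.34 ± 0.11 did not pass (limma adjusted p = 0.122); a second probe set gave 0.46, and the mean of both passed at 0.40 (limma adjusted p = 0.0298). Slc31a1, which encodes the copper importer CTR1, had 64.3, 62.3 and 86.4 in controls and 78.0, 95.9 and 107 on the KIAA1718 arrays, and differed by 0.22 (95% interval -0.03 to 0.48). The copper chaperone gene Atox1 had 532, 479 and 630.3 in controls and 574, 790.4 and 699 on the KIAA1718 arrays and differed by 0.17 (95% interval -0.04 to 0.39). For Slc31a1 and Atox1 the deposited values overlapped and the normalized ones did not, and neither gene passed. Further tested probe sets gave 0.29 for Slc31a1 and 0.36 and 0.29 for Atox1, and none passed. Atp7b, the liver copper ATPase gene, differed by 0.31 from a control mean of only 9.06, and Slc31a2 by 0.07.

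The 5 members left untested were Slc30a8, Slc30a10, Slc39a2, Slc39a5 and Slc39a12. Their signals on single arrays ran from 0.250 for Slc39a12 to 10.1 for Slc30a10. Slc30a8 is best known from pancreatic beta cells and Slc39a5 from pancreas and intestine. The lowest mean over all 6 arrays among tested probe sets was 6.65. Over all 6 arrays Slc30a10 lay under it, with group means of 3.95 in controls and 6.98 on the KIAA1718 arrays. Its single KIAA1718 arrays read 9.34, 10.1 and 1.54. Steap3 lay above the limit, with group means of 8.13 and 10.5.

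Genes with several probe sets gave a look at the same transcripts through other probes on the same arrays. In all, 25 further probe sets of 18 member genes were tested, and 21 of them lay on the same side of 0 as the gene's brightest probe set. The 4 on the other side differed by at most 0.15 and belonged to Mtf1, Slc31a2, Slc11a2 and Slc39a6. Of the 7 called genes, Mt2 and Ccs had no further probe set, and the 5 further sets of the other called genes lay on the same side as the brightest, with Slc39a8 and Slc40a1 past the threshold on both. All probe sets of a gene share the 6 samples, so they bear on the probes and not on the samples.

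**Figure D3:**
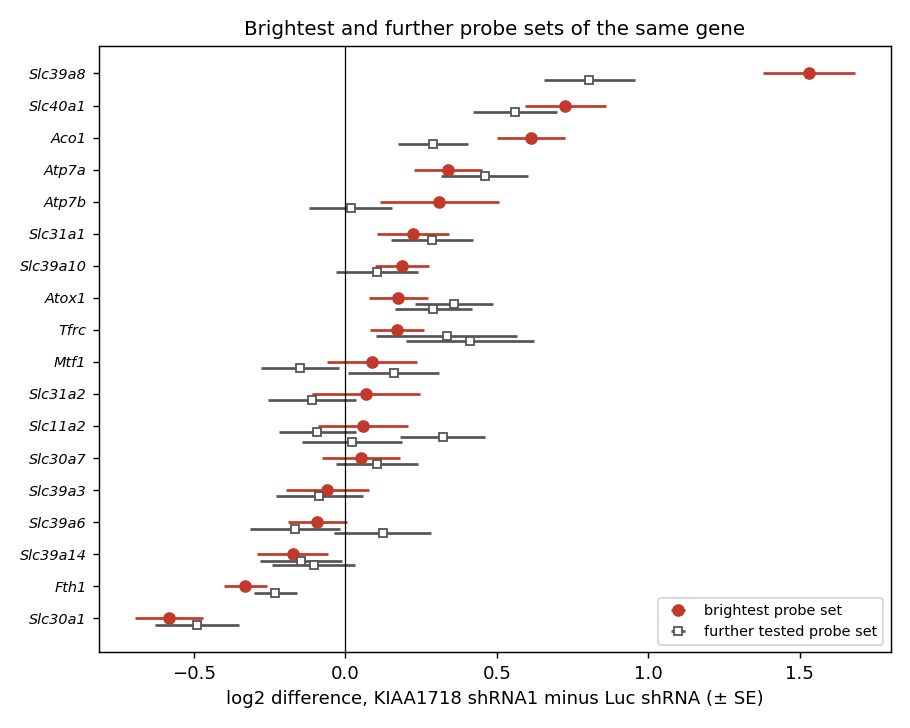
Log2 difference (x axis, ± SE) of the brightest probe set (filled circles) and further tested probe sets (open squares) for the 18 member genes that have both, on the same 3 arrays a group. Slc39a8 has 1.53 and 0.81, Slc40a1 0.73 and 0.56, Slc30a1 -0.58 and -0.49 and Fth1 -0.33 and -0.23.

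Beyond the members, 70 genes were listed by role, mostly of iron transport, haem and iron-sulphur cluster synthesis, copper delivery and zinc binding. Of these, 67 were on the array and 56 tested. Of the 56, 3 were called, 2 higher and 1 lower, beside 4.87% of all tested genes, and the other 53 did not pass. The median difference of the 56 was -0.03. Trf encodes transferrin, the carrier that brings iron to the transferrin receptor. It read 391, 310.1 and 413 in controls and 634, 847 and 1041 on the KIAA1718 arrays, with no overlap, and rose by 1.00 ± 0.13 (limma adjusted p = 0.00199). Cox11, which encodes a copper chaperone of cytochrome oxidase, read 356, 281 and 375 in controls and 467, 564 and 534 on the KIAA1718 arrays, and rose by 0.47 ± 0.10 (limma adjusted p = 0.0266). Slc41a1, which encodes a magnesium transporter, read 76.0, 79.8 and 107 in controls and 61.1, 43.3 and 50.8 on the KIAA1718 arrays, and fell by 0.72 ± 0.14 on the log2 scale (limma adjusted p = 0.0187). Without 1 array the count of 3 became 1 (without control replicates 2 or 3, or KIAA1718 replicates 2 or 3), 2 (without KIAA1718 replicate 1) or 5 (without control replicate 1); Trf passed in all 14 alternatives run, Slc41a1 in 8 and Cox11 in 6.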

How the data were processed

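RNA was measured on 6 Affymetrix Mouse Genome 430 2.0 arrays, 3 for each shRNA, grouped by sample title. The authors deposited a linear signal intensity per probe set; the submitters' processing notes name GCOS, and no source used here gives its settings or a genome build. Array scales differed, so intensities were quantile-normalized after removing 64 control probe sets, 16 was added and log2 taken. Of 45037 probe sets, the dimmest 40% by mean over the arrays were not tested. Differences were fitted with limma 3.58.1 in R 4.3.3 (eBayes with intensity trend, two-sided, Benjamini-Hochberg over 27023 probe sets, threshold 0.05). Only this fit was tried on simulated log2 values, with independent noise on each array. The normalization, the added 16 and the filter were not part of that trial. With 6 arrays, their number limits the precision. Signals of different probe sets were not compared.

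Symbols came from the array's annotation: 34945 probe sets had 1 symbol, 932 several and 9160 are unnamed here. Members and lists were chosen with earlier results of these data known, which the adjusted p-values do not allow for. Every tested member is named with its difference, and values per array are given for called members, for members whose groups did not overlap with a difference of at least 0.3, and for a fixed set of central genes; Slc30a9 was added after its values were seen. Of the genes listed beyond the members, those called are named. Replicate numbers are shared by the groups. Arrays of equal number deviated together from their groups' means (r = 0.202, 0.124 and 0.129 over probe sets, against -0.150 to 0.0246 for unequal numbers). The pairing thus rests on the data. The main fit leaves it out, and the blocked fit is quoted where it moves the call of a member. Alternatives were the scaling, the pseudocount, the filter, the trend, the block, averaging probe sets and leaving out each array.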

Additional observations from a re-analysis of the deposited data

How the results depend on the processing

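Slc39a8, whose rise was known when the set was proposed, passed in all 15 alternatives run, at 0.97 to 1.90. For this gene that is a description and no support. The count of 7 called members was 2 with no filter on low values, 4 with no intensity trend, 8 with replicate number as a block (the 7 and Mt1) and 1 to 6 without 1 array. With unscaled values 5 members were higher and none lower, beside 4 and 3 with normalization; limma then called 298 genes higher and 69 lower, beside 341 and 279, and arrays scaled to 1 median gave 248 and 333, with 3 members higher and 2 lower. Over all genes the count of 620 was 1000 with the block, 367 unscaled, 197 with no filter, 388 with no trend and 161 to 525 without 1 array. The members' median of 0.06 was 0.18 unscaled, where all genes had 0.11, 0.11 with a pseudocount of 1 and 0.0325 to 0.13 without 1 array. The count of 3 genes beyond the members was 1 with no filter, 5 with replicate number as a block (Steap2 and Lox added) and 1 to 5 without 1 array. The cause of these moves was not tested.

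Of 578 values of single genes under an alternative, 34, from 14 genes, changed sign; none belonged to a called gene or was itself past the threshold. With unscaled values they were Slc11a1 at 0.0596, Slc39a3 at 0.0405, Slc39a4 at 0.0380, Slc39a6 at 0.0441 and Slc39a7 at 0.0878. With arrays scaled to 1 median they were Ireb2 at -0.0042, Slc30a4 at -0.0330 and Slc39a11 at -0.0381, and with probe sets averaged Slc31a2 at -0.0216 and Steap3 at -0.0234. Without 1 array the ranges were -0.0142 to 0.11 for Ireb2, -0.0635 to 0.17 for Mtf1, -0.19 to 0.11 for Slc11a1, -0.0586 to 0.17 for Slc11a2, -0.0025 to 0.25 for Slc30a3, -0.12 to 0.15 for Slc30a4, -0.0178 to 0.16 for Slc30a7, -0.13 to 0.21 for Slc31a2, -0.0795 to 0.0928 for Slc39a11, -0.11 to 0.0322 for Slc39a3, -0.34 to 0.15 for Slc39a4 and -0.0429 to 0.20 for Steap3. No other call of a member changed with the block. A pseudocount of 64 changed no sign. The filter settings, the trend and the block leave a gene's difference as in the main fit, so no sign could change there. Their values are among the 578. The pseudocount of 16 shrinks differences most under a signal of about 16, but also above it. With a pseudocount of 1, Slc40a1 differed by 0.98 instead of 0.73 and Slc39a8 by 1.90 instead of 1.53. No detection calls were used here.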
